A study of Rattus norvegicus with 12 samples.

Results

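The cytochrome P450 genes of the rat renal cortex were taken as all rows of the deposited table whose symbol starts with Cyp followed by a digit, apart from Cyp24a1, Cyp27b1 and Cyp51, which left 44 of 13151 genes. RNA was sequenced from the kidney cortex of 12 male rats killed at 32 weeks of age, 4 in each of 3 groups, with 1 library per rat. The ZL group were untreated Zucker Lean rats, the control. ZF rats were untreated Zucker Fatty rats, an obese model that inherits a defective leptin receptor, so the defect is present in the whole animal and not only in the kidney. The ZF-SGLT2i rats were Zucker Fatty rats whose diet contained canagliflozin, an inhibitor of the glucose transporter SGLT2 of the proximal tubule, at 10 mg/kg per day, starting at 24 weeks of age and lasting 8 weeks. The paper describes earlier kidney biopsies in the ZL rats and in the ZF rats followed with them, and a separate purchase of ZF rats for its treatment study. From which of these sets the ZF libraries came is not in the labels. A figure legend of the paper calls the sequenced ZF rats ZF-NT, its name for the untreated rats of the treatment study. The comparison of ZF-SGLT2i with ZL rats crosses the sets. If the ZF libraries came from the treatment study, the comparison of ZF with ZL rats crosses them too. Reads on genes ranged from 8824980 to 12210257 per rat. Values are read counts scaled to a common library size (CPM) as scaled by the authors, means are given with the SD over 4 rats, and differences are log2 fold changes of (CPM + 1) with their standard error (SE).

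P450 enzymes are haem proteins that insert an oxygen atom into their substrate with electrons from P450 reductase or, in mitochondria, from adrenodoxin. In the kidney they are best known for arachidonate metabolism in the proximal tubule and the vessels, where Cyp2c and Cyp2j epoxygenases form epoxyeicosatrienoic acids and Cyp4a and Cyp4f omega-hydroxylases form 20-hydroxyeicosatetraenoic acid, lipids that act on salt transport and vascular tone. Other members oxidize drugs and small solvents, and others make or break down sterols, bile acids, steroids and retinoic acid.

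The promoters of 6 genes are shown, each as the 250 bases before the annotated transcript start in RefSeq (build GRCr8), namely those of the 4 genes with the largest share of the P450 reads and of Cyp2c11 and Cyp4f1, the called members with the largest fold change and the smallest adjusted p between ZF and ZL rats. Capitals mark AGGTCA, the half-site of nuclear receptors, in the first 4 sequences and the reverse complement of GCGTG in Cyp4f1, and Cyp2c23 held neither. Cyp4a2 lies on the minus strand at chr5:134170909-134171158 and its neighbour Cyp4a3 on the minus strand at chr5:134352237-134352486. Cyp2e1 lies on the plus strand at chr1:205269717-205269966 and Cyp2c11 on the plus strand at chr1:246174966-246175215. Cyp2c23 lies on the minus strand at chr1:252863068-252863317 and Cyp4f1 on the minus strand at chr7:12672554-12672803.
Cyp4a2: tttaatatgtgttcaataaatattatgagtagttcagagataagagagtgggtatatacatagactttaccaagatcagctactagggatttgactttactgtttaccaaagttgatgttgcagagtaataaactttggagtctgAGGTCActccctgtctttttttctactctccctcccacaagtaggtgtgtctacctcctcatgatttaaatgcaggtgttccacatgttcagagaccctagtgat
Cyp4a3: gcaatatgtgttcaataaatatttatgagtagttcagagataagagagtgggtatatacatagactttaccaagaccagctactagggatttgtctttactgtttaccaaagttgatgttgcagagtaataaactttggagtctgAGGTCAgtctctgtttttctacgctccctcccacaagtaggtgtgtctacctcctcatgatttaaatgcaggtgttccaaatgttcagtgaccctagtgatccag
Cyp2e1: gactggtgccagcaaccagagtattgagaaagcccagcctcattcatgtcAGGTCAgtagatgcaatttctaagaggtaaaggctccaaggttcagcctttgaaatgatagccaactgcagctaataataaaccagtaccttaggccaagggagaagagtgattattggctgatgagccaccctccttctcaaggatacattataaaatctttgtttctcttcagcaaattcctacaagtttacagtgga
Cyp2c11: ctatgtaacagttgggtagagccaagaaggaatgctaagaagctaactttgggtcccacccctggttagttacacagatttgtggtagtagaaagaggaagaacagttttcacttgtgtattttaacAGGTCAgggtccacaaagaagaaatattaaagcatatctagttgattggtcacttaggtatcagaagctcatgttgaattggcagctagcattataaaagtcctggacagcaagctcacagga
Cyp2c23: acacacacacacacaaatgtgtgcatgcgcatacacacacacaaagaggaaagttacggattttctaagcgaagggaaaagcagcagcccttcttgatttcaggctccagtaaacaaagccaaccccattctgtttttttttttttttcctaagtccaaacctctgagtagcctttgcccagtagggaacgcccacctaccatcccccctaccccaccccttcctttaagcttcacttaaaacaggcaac
Cyp4f1: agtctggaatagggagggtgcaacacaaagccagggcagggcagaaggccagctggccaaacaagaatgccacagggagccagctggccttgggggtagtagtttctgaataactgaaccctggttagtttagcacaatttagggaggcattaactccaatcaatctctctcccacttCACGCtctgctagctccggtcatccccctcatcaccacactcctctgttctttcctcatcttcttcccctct
The Cyp4a2 and Cyp4a3 windows were nearly the same sequence. Over 300 bases that also took in the first 50 bases of the transcript they shared 284 of 305 aligned positions (93.1%), and both held AGGTCA starting 105 bases before the transcript start. The half-site began 200 bases before the start in Cyp2e1 and 123 bases before it in Cyp2c11. Searched on both strands of such 300-base windows, AGGTCA was found in 12 of the 37 P450 genes with a promoter in the RefSeq table (32.4%), in 3 of the 11 members called lower in ZF rats (27.3%) and in 16.2% of all 33469 windows of that length. The Ah receptor core GCGTG was found in 12 of the 37 genes (32.4%) and 29.7% of all promoters. The E-box CACGTG was found in 1 of the 37, Cyp2j4, and in 6.42% of all promoters. The D-boxes TTATGTAA and TTACGTAA, present in 0.893% and 0.120% of all promoters, were found in none of the 37. A match is a description of the letters in this window and no evidence of binding.

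Most of the P450 reads fell on 4 genes. Each gene's share of the CPM summed over the 44 genes was taken in each rat and averaged over all rats. It was 52.1% for Cyp4a2, 22.5% for Cyp2c23, 8.22% for Cyp4a3 and 4.77% for Cyp2e1, shares of reads that also depend on transcript length. The order was not the same in every rat. Cyp4a8 took a larger share than Cyp2e1 in ZL rat 1 (5.92% against 4.33%), ZL rat 4 (7.77% against 3.33%) and ZF rat 2 (5.21% against 3.83%). The summed CPM was 9020 ± 1230 in lean rats (SD, n = 4). It was 6096 ± 1145 in untreated and 7092 ± 1264 in treated obese rats. Reads on P450 genes made up 0.681% to 0.941% of a ZL library, 0.526% to 0.803% of a ZF library and 0.556% to 0.856% of a ZF-SGLT2i library. The lowest ZL sum, 7208 in ZL rat 2, lay below the highest ZF sum, 7682 in ZF rat 4, so the sums of the groups overlapped. The share of reads on the ribosomal RNA genes Rn28s and Rn45s also differed between rats. In ZF and ZF-SGLT2i the rat with the lowest share, rat 4 (8.82% and 11.5%), had the highest P450 sum. In ZL and ZF-SGLT2i the rat with the highest share, rats 2 (12.0%) and 6 (15.2%), had the lowest P450 sum. ZL rat 3 (7.25%) and ZF rat 3 (12.0%) did not follow this order. The part of that share in the P450 values was not tested.

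**Figure D1:**
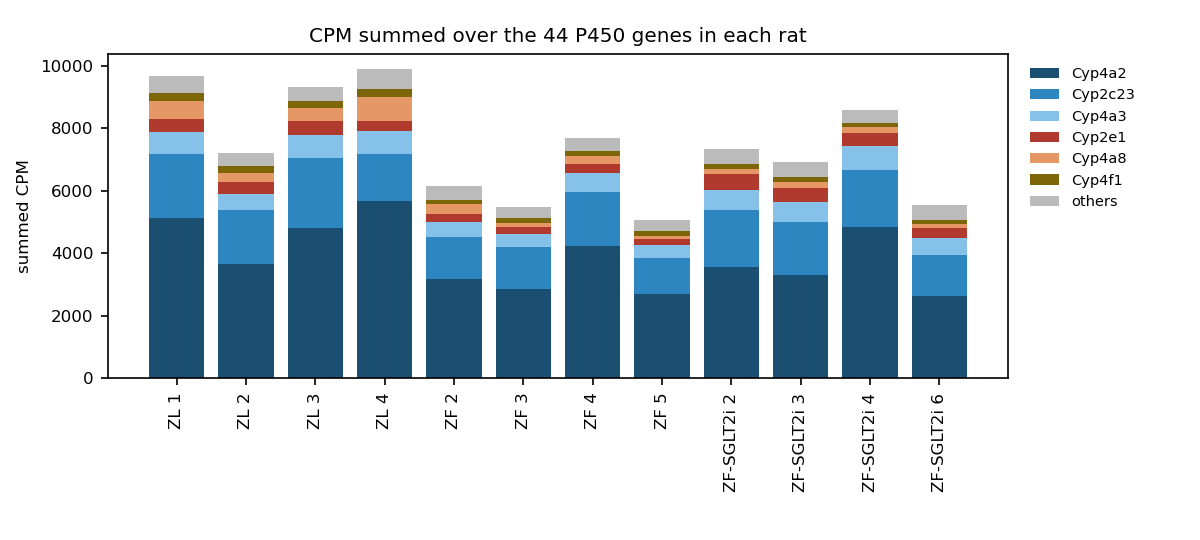
Stacked bars of CPM (y axis, from 0) summed over the 44 P450 genes in each of the 12 rats (x axis), split by gene. Cyp4a2 was the tallest segment in every rat, at 47.6% to 57.5% of the sum, and ZF rat 5 had the lowest sum, 5075.

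Libraries within a group stood apart in the same genes. Tests were run on the 34 members with at least 1 CPM in at least 4 rats, among 11633 genes that passed this filter. In 9 of the 34 (26.5%), ZL rats 1 and 4 were the highest ZL rats and ZF rat 2 was the highest ZF rat, an order found in 7.61% of all tested genes. These members were Cyp2c11, Cyp2c24, Cyp2d1, Cyp2d2, Cyp2d4, Cyp2d5, Cyp2j3, Cyp2j4 and Cyp4a8, and the order was looked for after their values had been seen. Markers of segment S3, the last part of the proximal tubule, had that order in 3 of 7 cases (Slc7a13, Slc22a7 and Agt). ZL rats 1 and 4 were the highest ZL rats in 6 of the 7, all but Slc27a2, while ZF rat 4 was the highest ZF rat in Acsm3, Slc5a1, Slc27a2 and Slc5a8. Slc7a13, an amino acid transporter of S3, had 838, 140, 244 and 1896 CPM in ZL rats 1 to 4. In ZF rats 2 to 5 it had 148, 21.4, 36.0 and 6.12 CPM, and in ZF-SGLT2i rats 14.1 to 22.3 CPM. ZL rats 1 and 4 were highest in ZL and ZF rat 2 in ZF, as for the P450 genes.

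**Figure D2:**
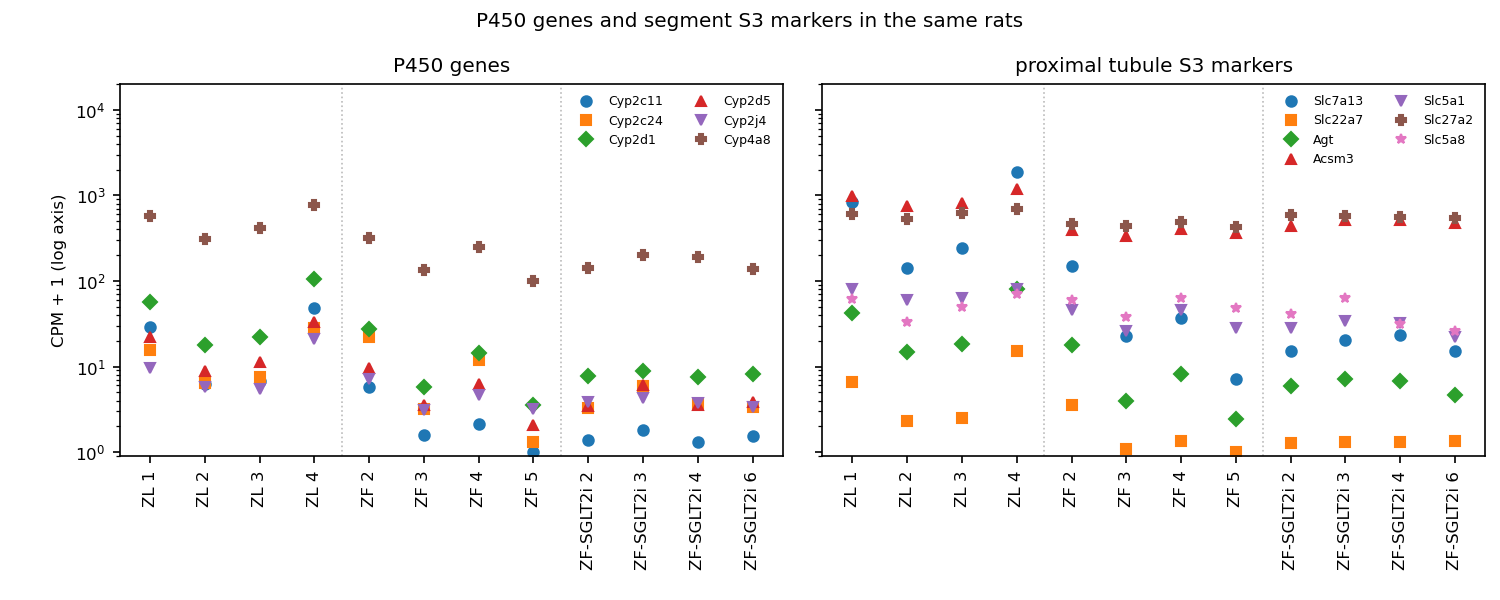
CPM + 1 (log y axis) of 6 P450 genes (left) and of the 7 S3 marker genes (right) in each of the 12 rats (x axis, dotted lines between the groups). ZL rats 1 and 4 are high within ZL and ZF rat 2 within ZF for Cyp2c11, Cyp2d1 and Cyp2d5 and for Slc7a13, Slc22a7 and Agt, while Slc27a2 and Slc5a8 vary less.

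Between obese and lean rats, P450 genes that differed were lower in the obese kidney. Of the 34 tested members, 11 were called lower in ZF than in ZL rats and none higher (limma, adjusted p under 0.05 by the Benjamini-Hochberg method over 11633 genes). That is 32.4% of the tested members, where 10.6% of all tested genes were called lower and 8.19% higher, 18.8% in both directions. After quantile normalization 1103 genes were higher and 942 lower, in place of 953 and 1232, and 12 members were called, again all lower. At an unadjusted p under 0.05, 19 of the 34 passed, against 33.1% of all tested genes. Every ZF rat lay on the same side of every ZL rat in 9 members (26.5%), against 19.0% of all tested genes. The median log2 fold change was −0.32 over the members and −0.01 over all tested genes. By family number, 7 of the 16 tested Cyp2 genes, 3 of the 11 tested Cyp4 genes and 1 of the 2 Cyp26 genes were called lower. The tissue is a mixture of cells, so fewer cells of a type and less RNA per cell cannot be told apart in these and all later values.

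**Figure D3:**
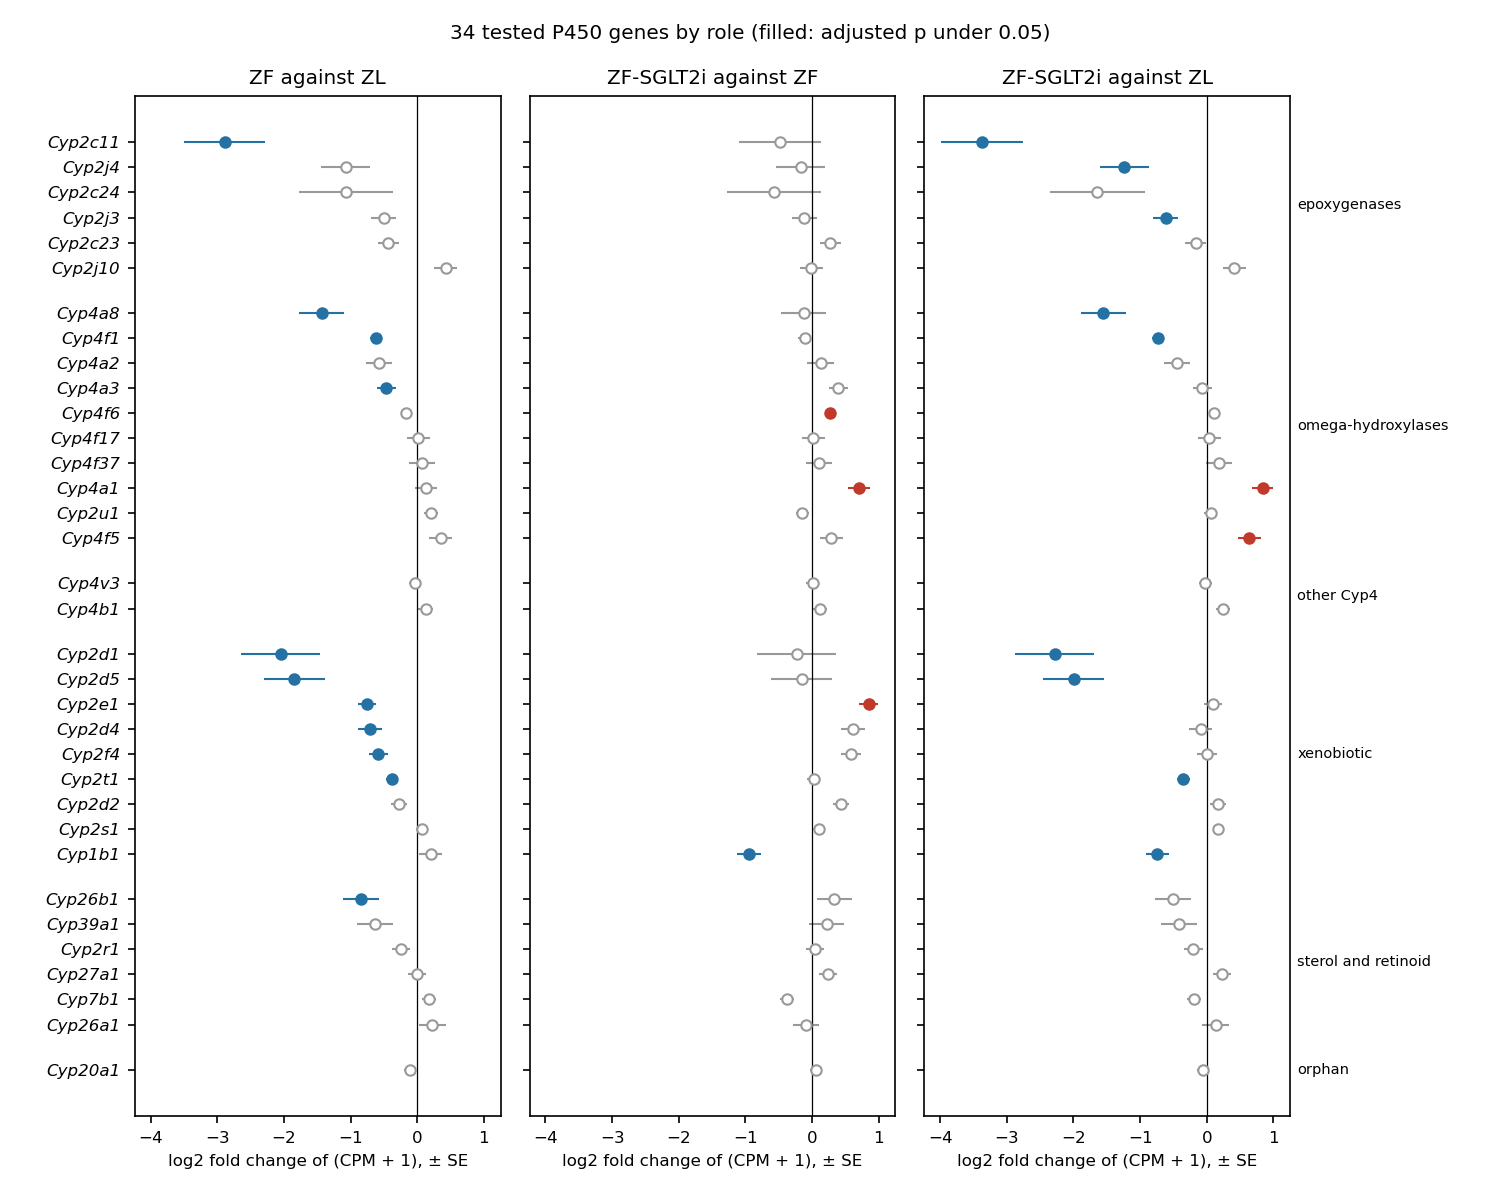
Log2 fold change of (CPM + 1) with its SE (x axis) for the 34 tested P450 genes (y axis, grouped by role) in the 3 comparisons. Filled points had an adjusted p under 0.05, blue lower and red higher in the first group. In ZF against ZL the 11 filled points all lie left of 0, down to −2.89 for Cyp2c11.

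Among the 6 arachidonate epoxygenases tested, only Cyp2c11 was called between ZF and ZL rats in the limma fit reported. Cyp2c11, a male-predominant enzyme that also hydroxylates testosterone, had 27.6, 5.29, 5.78 and 46.7 CPM in ZL rats 1 to 4. It had 4.70, 0.601, 1.11 and 0 CPM in ZF rats 2 to 5. All ZF rats were below all ZL rats, but ZL rats 1 and 4 stood far above ZL rats 2 and 3. The log2 fold change was −2.89 ± 0.61 (limma adjusted p = 0.0065, exact permutation p = 0.0286, the smallest that 4 rats against 4 can give). The most abundant epoxygenase, Cyp2c23, which is known as the main arachidonate epoxygenase of the rat kidney, had 1489 to 2241 CPM in ZL and 1136 to 1736 CPM in ZF rats. Its difference of −0.44 ± 0.16 did not pass the threshold (limma adjusted p = 0.068) and had a 95% interval of −0.78 to −0.10. Cyp2c23 was called lower by DESeq2 and, in limma, without ZL rat 4 or without ZF rat 4. Cyp2j4 ranged from 4.42 to 20.2 CPM in ZL and from 2.10 to 6.14 CPM in ZF rats, a difference of −1.07 ± 0.37 (limma adjusted p = 0.058). It was called lower by edgeR, by DESeq2, after quantile normalization, and without ZL rat 2, ZL rat 3 or ZF rat 2. The range of Cyp2j3 was 3.64 to 7.06 CPM in ZL and 2.39 to 4.12 CPM in ZF rats, and that of Cyp2c24 was 5.46 to 27.4 and 0.328 to 21.3 CPM. Cyp2j10 went the other way, with 0.715 to 1.17 CPM in ZL and 0.940 to 2.00 CPM in ZF rats (log2 fold change 0.43 ± 0.17, limma adjusted p = 0.098). The groups overlapped in these 5 genes.

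Of the 10 omega-hydroxylases tested, 3 were called lower. Cyp4f1, which hydroxylates arachidonate and leukotriene B4, had 254, 207, 223 and 261 CPM in ZL rats 1 to 4. In ZF rats 2 to 5 it had 151, 146, 178 and 139 CPM. All ZF values were below all ZL values, and the 2 groups were each narrow. The log2 fold change of −0.62 ± 0.10, a mean 0.650 times that of ZL, had the smallest adjusted p of all members (limma adjusted p = 0.0011). Cyp4a8 fell to 0.388 times the ZL mean, from 516 ± 201 to 200 ± 103 CPM (log2 fold change −1.43 ± 0.34, limma adjusted p = 0.011). Its groups overlapped, with 304 to 768 CPM in ZL and 99.6 to 320 CPM in ZF rats. Cyp4a3 fell from 676 ± 110 to 491 ± 95.8 CPM (log2 fold change −0.46 ± 0.15, limma adjusted p = 0.041), also with overlap, since ZL rat 2 (512 CPM) lay below ZF rat 4 (628 CPM). This call was lost in 13 of 23 alternatives, among them quantile normalization, the fit of the 2 groups alone and the omission of any 1 of 8 rats.

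Cyp4a2, the omega-hydroxylase with the largest share of the P450 reads, had 3654 to 5680 CPM in ZL and 2704 to 4215 CPM in ZF rats. Its mean in ZF was 0.673 times that in ZL, a log2 fold change of −0.58 ± 0.20 with a 95% interval of −1.003 to −0.147, and it missed the threshold (limma adjusted p = 0.059). It was called lower in 5 of 23 alternatives: DESeq2, and limma without ZL rat 2, ZF rat 4, ZF-SGLT2i rat 4 or ZF-SGLT2i rat 6. Cyp4a2 and Cyp4a3 are close relatives, and how reads that match both were assigned was not examined. The values of Cyp4f6 were 30.5 to 30.8 CPM in ZL and 25.3 to 28.3 CPM in ZF rats, apart in every rat, with a difference of −0.17 ± 0.06 (limma adjusted p = 0.071). Cyp4a1, Cyp4f5, Cyp4f17, Cyp4f37 and Cyp2u1 were not called, with log2 fold changes between 0.02 and 0.35. The 2 other Cyp4 genes, Cyp4b1 and Cyp4v3, a fatty acid hydroxylase, had differences of 0.13 ± 0.11 and −0.03 ± 0.10.

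**Figure D4:**
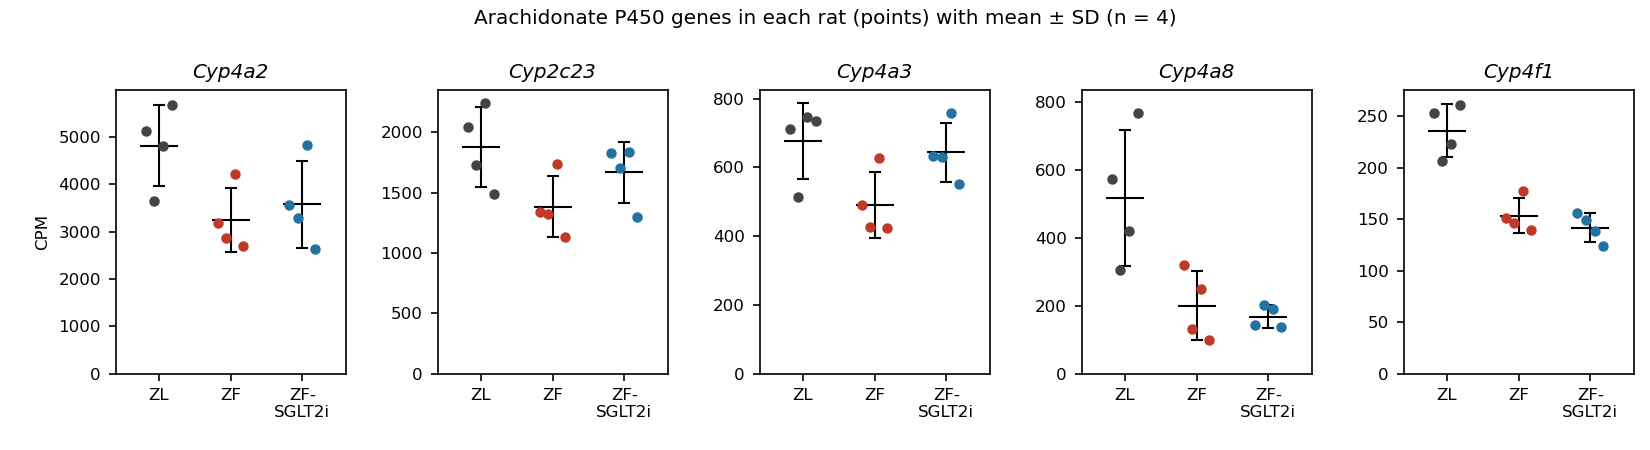
CPM (y axis, from 0) of the 5 most abundant arachidonate P450 genes in ZL, ZF and ZF-SGLT2i rats (x axis). Points are rats and bars are the mean ± SD (n = 4). Cyp4f1 is the only panel in which all ZF and all ZF-SGLT2i points lie below all ZL points.

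The xenobiotic P450 genes held 6 of the 11 genes called lower, of 9 tested. Cyp2e1, which oxidizes ethanol, acetone and small solvents, had 419, 382, 447 and 329 CPM in ZL rats 1 to 4. The ZF rats 2 to 5 had 235, 221, 274 and 202 CPM. No ZF rat reached the lowest ZL rat, and the mean in ZF was 0.591 times that in ZL (log2 fold change −0.76 ± 0.14, limma adjusted p = 0.0027). Cyp2t1, a Cyp2 gene of unknown substrate, had 9.96, 10.9, 12.6 and 11.9 CPM in ZL and 8.82, 7.82, 8.63 and 8.64 CPM in ZF rats, again with no overlap (log2 fold change −0.38 ± 0.09, limma adjusted p = 0.015). Cyp2f4, the rat form of an enzyme known from the airway, had 1.53, 1.13, 1.70 and 1.52 CPM in ZL and 0.479, 0.802, 0.769 and 0.547 CPM in ZF rats. These Cyp2f4 values rest on 5 to 20 reads per rat over all groups, and the ZF values were all below the ZL values (log2 fold change −0.58 ± 0.15, limma adjusted p = 0.017). Without ZF rat 2 the Cyp2f4 call was lost (limma adjusted p = 0.051).

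The drug-oxidizing Cyp2d genes Cyp2d1, Cyp2d5 and Cyp2d4 were called lower with overlapping groups. How reads that match more than 1 Cyp2d gene were assigned was not examined, so these calls may not be separate results. Cyp2d1 ranged from 16.99 to 104 CPM in ZL and from 2.51 to 26.6 CPM in ZF rats (log2 fold change −2.05 ± 0.59, limma adjusted p = 0.029), a call lost without ZL rat 1 or 4 or ZF rat 3 or 5 and in the fit of the 2 groups alone. The range of Cyp2d5 was 7.89 to 32.4 CPM in ZL and 1.09 to 8.73 CPM in ZF rats (−1.84 ± 0.46, limma adjusted p = 0.014). For Cyp2d4 it was 13.1 to 22.4 CPM in ZL and 8.32 to 14.3 CPM in ZF rats (−0.71 ± 0.18, limma adjusted p = 0.014). Cyp2d2, with 50.9 to 78.9 CPM in ZL and 46.9 to 58.1 CPM in ZF rats, was not called (−0.27 ± 0.12, limma adjusted p = 0.13). In Cyp2d1 and Cyp2d5 the ZF rat 2 reached into the ZL range, and the remaining ZF rats stayed below it. Cyp2s1 and Cyp1b1 were not called, with differences of 0.07 ± 0.09 and 0.20 ± 0.17.

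Of the 6 tested genes of sterol, bile acid and retinoid metabolism, Cyp26b1 was called. Cyp26b1, which breaks down retinoic acid, had 14.2, 10.1, 8.62 and 9.74 CPM in ZL and 3.64, 7.32, 8.46 and 3.61 CPM in ZF rats. The groups did not overlap, though ZL rat 3 and ZF rat 4 nearly met (log2 fold change −0.84 ± 0.27, limma adjusted p = 0.041). The call was lost in 11 of 22 alternatives, among them edgeR and the omission of ZL rat 1, 2 or 4, ZF rat 2 or 5 or ZF-SGLT2i rat 4 or 6. Cyp7b1, an oxysterol 7-alpha-hydroxylase and the only Cyp7 gene in the table, had 8.97 to 10.3 CPM in ZL and 10.3 to 11.5 CPM in ZF rats. The highest ZL rat nearly met the lowest ZF rat, and the gene was not called (limma adjusted p = 0.24). The sterol 27-hydroxylase Cyp27a1 (16.2 ± 1.77 CPM in ZL), the bile acid enzyme Cyp39a1 (6.37 ± 2.93), the vitamin D 25-hydroxylase Cyp2r1 (5.35 ± 0.989), the retinoic acid hydroxylase Cyp26a1 (0.799 ± 0.271) and the orphan P450 Cyp20a1 (38.7 ± 2.47) were not called.

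Cell type markers were read beside these values. The 7 S3 markers summed to 2606, 1520, 1809 and 4005 CPM in ZL rats 1 to 4, to 851 to 1122 CPM in ZF rats and to 1077 to 1202 CPM in ZF-SGLT2i rats. Of these, 6 were called lower in ZF than in ZL rats: Slc7a13, Slc22a7, Agt, Slc5a1, Slc27a2 and the most abundant, Acsm3. None of the 8 markers of segments S1 and S2 was called in that comparison, and their median log2 fold change was −0.17. Their sum was 18991 to 21907 CPM in ZL and 15162 to 19488 CPM in ZF rats, with Lrp2 the most abundant gene. Lrp2 (10444 to 11361 CPM in ZL, 6695 to 9531 CPM in ZF) and Hnf4a (1138 to 1278 and 988 to 1121 CPM) were lower in every ZF rat. The ranges overlapped in the other markers of this list. The markers of injured tubule were 6 of 8 higher in ZF, and their sum, with Spp1 the most abundant gene over all rats, was 463 to 559 CPM in ZL and 724 to 2096 CPM in ZF rats. The part of these cell types and states in the P450 values was not tested. A setting without ZL rats 1 and 4, which leaves ZL rats 2 and 3, was added after seeing the data. The rats left out were the 2 highest ZL rats in 12 of the 34 tested members (35.3%) and in 22.8% of all tested genes. Cyp2c11, Cyp2d1, Cyp2d4, Cyp2d5, Cyp4a8 and Cyp4f1 were among these. Leaving them out lowers the ZL mean of such genes by construction, so lost calls there were partly fixed in advance. The count called over all tested genes fell as well. In this setting 3 members remained called lower in ZF than in ZL (Cyp4f1, Cyp2e1 and Cyp2t1), with log2 fold changes of −0.49, −0.83 and −0.43. The calls of Cyp2c11, Cyp2d1, Cyp2d5, Cyp4a8, Cyp26b1, Cyp2f4, Cyp2d4 and Cyp4a3 were lost. Over all alternatives run, their log2 fold changes nearest 0 were −1.64, −1.07, −1.12, −0.99, −0.54, −0.49, −0.47 and −0.26. Without ZL rats 1 and 4 and ZF rat 2, 7 members were called, namely Cyp2c11, Cyp2d1, Cyp2d4, Cyp2d5, Cyp2e1, Cyp4a8 and Cyp4f1.

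Markers of hepatocytes, which express many of these P450 genes at high levels, were read as well, and their part in the P450 values was not tested. Albumin (Alb) reached at most 0.342 CPM and Apoa1 at most 0.449 CPM in any rat, and Apob was the most abundant of the 4 hepatocyte markers in the table, which summed to 14.5 to 37.3 CPM. Serpina1 was called higher in ZF-SGLT2i than in ZF rats, with 1.45 to 2.32 against 0 to 0.769 CPM. The 5 adrenal cortex markers in the table summed to 0.547 to 4.20 CPM, with Cyp21a1 as the most abundant, and were highest in ZL rats 1 and 4 (3.95 and 4.20 CPM).

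Few P450 genes were called after canagliflozin, though a larger share than among all tested genes. Between ZF-SGLT2i and ZF rats, 3 members were called higher (Cyp2e1, Cyp4a1 and Cyp4f6) and 1 lower (Cyp1b1), 11.8% of the 34 tested members, where 3.15% of all tested genes were called, 1.39% higher and 1.75% lower. The groups did not overlap in 7 members (20.6%), against 11.2% of all tested genes, and 9 members had an unadjusted p under 0.05, against 17.2%. The median log2 fold change was 0.05 over the members and 0.01 over all tested genes. This comparison and that with ZL rats use the same ZF values, so the 2 sets of differences are not independent. Only 2 members were called without ZF rat 3 or without ZF-SGLT2i rat 2, 3 or 6.

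Cyp2e1 had 516, 448, 407 and 323 CPM in ZF-SGLT2i rats 2, 3, 4 and 6, beside the 202 to 274 CPM of ZF rats. Every treated rat was above every untreated obese rat. The mean was 1.82 times that of ZF (log2 fold change 0.85 ± 0.14, limma adjusted p = 0.0045, exact permutation p = 0.0286). Against ZL rats the difference was 0.09 ± 0.14 with a 95% interval of −0.20 to 0.38 (limma adjusted p = 0.65), and the ranges of ZL and ZF-SGLT2i rats overlapped. Both comparisons use the same ZF-SGLT2i rats.

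Cyp4a1, a fatty acid omega-hydroxylase known as a target of the nuclear receptor PPAR alpha, had 126, 125, 101 and 130 CPM in ZF-SGLT2i rats 2, 3, 4 and 6. It had 63.0, 69.96, 81.4 and 78.5 CPM in ZF rats 2 to 5, and 74.5, 72.3, 84.03 and 43.4 CPM in ZL rats 1 to 4. Every treated rat was above every rat of both other groups. The log2 fold change was 0.71 ± 0.16 against ZF (1.64 times the mean, limma adjusted p = 0.029) and 0.84 ± 0.16 against ZL (limma adjusted p = 0.0022). Cyp4f6, a fatty acid hydroxylase next to Cyp4f1 in the genome, had 32.6, 36.0, 32.0 and 31.7 CPM in ZF-SGLT2i and 25.3, 26.8, 28.3 and 28.1 CPM in ZF rats. Its treated rats also lay above all ZL rats, though that difference was not called (0.11 ± 0.06, limma adjusted p = 0.23). Against ZF the groups were apart by a small margin, with a mean 1.22 times that of ZF (log2 fold change 0.28 ± 0.06, limma adjusted p = 0.028). Both calls were lost when any of several single rats was left out: Cyp4a1 without ZF rat 2, 3 or 4 or ZF-SGLT2i rat 2, 3 or 6, and Cyp4f6 without ZF rat 2 or 3 or any of the 4 ZF-SGLT2i rats.

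Cyp1b1, which oxidizes estradiol and polycyclic hydrocarbons, had 0.857, 0.303, 0.704 and 0.780 CPM in ZF-SGLT2i and 2.78, 1.90, 2.48 and 1.64 CPM in ZF rats. The ZL rats had 1.25 to 2.24 CPM. All treated rats were below all other rats, at a level near 1 CPM that rests on 3 to 29 reads per rat. The difference was −0.94 ± 0.17 against ZF (limma adjusted p = 0.0094) and −0.74 ± 0.17 against ZL (limma adjusted p = 0.0066). Markers of fibroblasts and smooth muscle were also lower in treated rats, with 4 of 7 called (Dcn, Col3a1, Col1a2 and Pdgfrb) and a summed level of 395 to 409 CPM in ZF-SGLT2i, 516 to 879 CPM in ZF and 359 to 583 CPM in ZL rats. Pdgfrb was the most abundant gene of that list, and its part in the Cyp1b1 values was not tested.

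**Figure D5:**
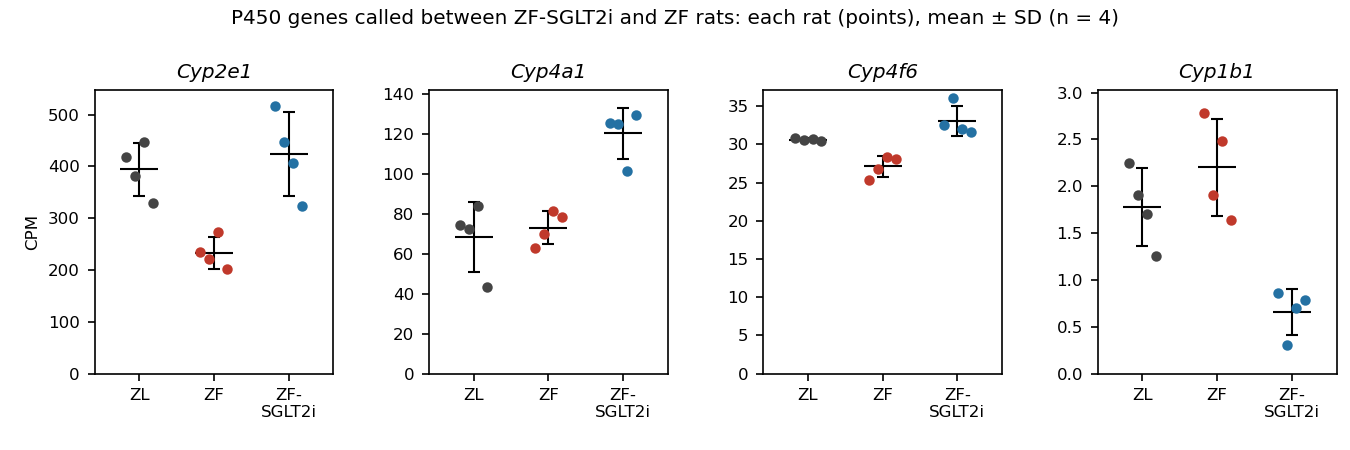
CPM (y axis, from 0) of the 4 P450 genes called between ZF-SGLT2i and ZF rats, in the 3 groups (x axis). Points are rats and bars are the mean ± SD (n = 4). In all 4 panels the ZF-SGLT2i points do not overlap the ZF points, and for Cyp4a1, Cyp4f6 and Cyp1b1 they also lie outside the ZL points.

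Some members that fell in ZF rats had higher values in treated rats without passing the threshold. Cyp2f4 had 1.24 to 2.02 CPM in ZF-SGLT2i rats, all above the ZF rats (log2 fold change 0.58 ± 0.15, limma adjusted p = 0.053). It was called higher by edgeR, after quantile normalization, with a pseudocount of 0.1 and without the filter on low values. Cyp2d4 had 13.8 to 17.9 CPM (0.62 ± 0.18, limma adjusted p = 0.078) and Cyp4a3 551 to 759 CPM (0.40 ± 0.15, limma adjusted p = 0.17), each overlapping the ZF range. Among members that had not been called in ZF rats, Cyp2d2 had 65.4 to 81.7 CPM, all above the ZF rats (0.44 ± 0.12, limma adjusted p = 0.066), and Cyp7b1 had 7.17 to 10.2 CPM, all below them (−0.37 ± 0.10, limma adjusted p = 0.075). Cyp2d2 was called higher by DESeq2, in the fit of the 2 groups alone and without ZL rat 2 or ZL rat 4, among other settings.

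The other arachidonate genes were not called between treated and untreated obese rats. None of the 6 epoxygenases was called: Cyp2c23 had 1300 to 1841 CPM in ZF-SGLT2i rats (log2 fold change 0.27 ± 0.16, 95% interval −0.07 to 0.61). Cyp2c11 stayed between 0.302 and 0.808 CPM, on 3 to 8 reads per rat, beside 0 to 4.70 CPM in ZF rats. Cyp2c24 had 2.29 to 4.85 CPM, Cyp2j3 2.23 to 2.95 CPM, Cyp2j4 2.34 to 3.33 CPM and Cyp2j10 1.11 to 1.89 CPM. The difference of Cyp4a2 was 0.13 ± 0.20 (2630 to 4828 CPM, 95% interval −0.30 to 0.56), that of Cyp4f1 was −0.11 ± 0.10 (124 to 156 CPM) and that of Cyp4a8 was −0.12 ± 0.34 (136 to 202 CPM). The 95% intervals of the ratio of treated to untreated rats, taken on CPM + 1, were 0.814 to 1.47 for Cyp4a2, 0.955 to 1.53 for Cyp2c23 and 0.803 to 1.07 for Cyp4f1. They were wider for Cyp4a8 (0.556 to 1.52), Cyp2j4 (0.514 to 1.54), Cyp2c11 (0.287 to 1.78) and Cyp2c24 (0.234 to 1.93), and the data do not tell values within these bounds apart. For low genes these intervals do not bound the ratio of CPM itself, which for the means was 0.319 in Cyp2c11 and 0.347 in Cyp2c24.

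Against lean rats, treated obese rats differed in 11 members, 9 lower and 2 higher. This is 32.4% of the tested members (26.5% lower and 5.88% higher), where 27.4% of all tested genes were called, 15.0% lower and 12.4% higher. The groups did not overlap in 12 members (35.3%), against 28.0% of all tested genes, and 15 members had an unadjusted p under 0.05, against 39.3%. Members called lower were Cyp2c11, Cyp2j4 and Cyp2j3 among the epoxygenases, Cyp4a8 and Cyp4f1 among the omega-hydroxylases, and Cyp2d1, Cyp2d5, Cyp2t1 and Cyp1b1 among the xenobiotic genes. Called higher were Cyp4a1 and Cyp4f5. The ZF-SGLT2i rats share their ZL comparison group with the ZF rats. Cell type markers differed in this comparison too. Of the S3 markers 5 of 7 were called lower, and of the S1 and S2 markers 3 of 8, Lrp2 among them, and the sum of the 8 was 12698 to 16388 CPM in ZF-SGLT2i rats. Of the collecting duct markers 5 of 6 were called higher, with a sum of 1172 to 1853 CPM in ZL and 2130 to 2466 CPM in ZF-SGLT2i rats and Aqp2 the most abundant gene. Of the injured tubule markers 5 of 8 were called higher and 1 (Vcam1) lower, and their sum was 582 to 1316 CPM in ZF-SGLT2i rats. Called higher as well were 3 of 6 podocyte markers, 1 of 6 endothelial, 1 of 5 thick limb and distal tubule and 1 of 2 tested hepatocyte markers, and called lower 2 of 7 fibroblast and smooth muscle and 1 of 5 thick limb and distal tubule markers. Their part in the P450 values was not tested.

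Cyp4f1 had 156, 149, 139 and 124 CPM in ZF-SGLT2i rats 2, 3, 4 and 6, all below the 207 to 261 CPM of ZL rats (log2 fold change −0.73 ± 0.10, limma adjusted p = 0.00016). Cyp2c11 had 0.381, 0.808, 0.302 and 0.557 CPM, all below the lowest ZL value of 5.29 CPM (−3.37 ± 0.61, limma adjusted p = 0.0015). Cyp4a8 had 142, 202, 191 and 136 CPM, below all ZL rats (−1.55 ± 0.34, limma adjusted p = 0.0044). In these 3 genes the treated rats lay in or below the range of untreated obese rats. Cyp2d1 had 6.66, 7.98, 6.44 and 7.25 CPM and Cyp2d5 2.48, 5.15, 2.52 and 2.90 CPM, both below all ZL rats (−2.28 ± 0.59, limma adjusted p = 0.012, and −2.00 ± 0.46, limma adjusted p = 0.0060). Cyp2j4 had 2.86, 3.33, 2.72 and 2.34 CPM (−1.24 ± 0.37, limma adjusted p = 0.024). For Cyp2j3 the values were 2.95, 2.93, 2.92 and 2.23 CPM (−0.62 ± 0.19, limma adjusted p = 0.025), and for Cyp2t1 they were 9.24, 8.58, 9.16 and 7.69 CPM (−0.35 ± 0.09, limma adjusted p = 0.015). All of these lay below the ZL rats. Cyp4f5, a fatty acid hydroxylase, had 6.14 to 10.4 CPM in ZF-SGLT2i and 3.99 to 6.88 CPM in ZL rats, with ZL rat 4 inside the treated range (0.64 ± 0.17, limma adjusted p = 0.015). Without ZL rats 1 and 4, which leaves ZL rats 2 and 3, 6 members were called, 2 higher and 4 lower. Cyp2d1, Cyp2d5, Cyp4a8, Cyp2j3 and Cyp2j4 lost the call in that setting, with log2 fold changes of −1.30, −1.28, −1.11, −0.33 and −0.56 (limma adjusted p = 0.15, 0.082, 0.058, 0.28 and 0.21). In each of these genes the rats left out were the highest ZL rats, so the difference shrinks by construction. Without ZF-SGLT2i rat 6, 7 members were called, and Cyp2j3, Cyp2j4, Cyp2t1 and Cyp4f5 were lost. The calls of Cyp2j3 and Cyp2j4 were also lost without ZL rat 1, and that of Cyp2j3 without ZL rat 4.

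Some P450 genes stand next to each other on the chromosomes. In the RefSeq gene order of GRCr8, Cyp4a8, Cyp4a2, Cyp4a3, Cyp4a1 and Cyp4b1 stand next to each other on chromosome 5, with 1 further coding gene between Cyp4a2 and Cyp4a3. Their log2 fold changes between ZF and ZL rats were −1.43, −0.58, −0.46, 0.13 and 0.13, and between ZF-SGLT2i and ZF rats −0.12, 0.13, 0.40, 0.71 and 0.12. Cyp4f1 and Cyp4f6 are adjacent on chromosome 7. Between ZF and ZL rats their log2 fold changes were −0.62 and −0.17, and between ZF-SGLT2i and ZF rats −0.11 and 0.28. The Cyp2d genes stand together on chromosome 7 in the order Cyp2d4, Cyp2d5, Cyp2d1, Cyp2d3 and Cyp2d2. The promoters of Cyp2d1 and Cyp2d5, both of which fell in ZF rats, shared 73.4% of aligned positions. That of Cyp2d4, which fell as well, shared 43.9% with Cyp2d1 and 44.5% with Cyp2d5, where pairs of members from different subfamilies shared a median of 45.5% (34.9% to 52.4%). Cyp2c11 and Cyp2c24 are adjacent on chromosome 1, with promoters that shared 64.4%. Whether any 2 neighbours differed from each other in response was not tested.

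The electron donors of P450 enzymes did not fall together. Of the 10 tested, 1 was called higher and 3 lower in ZF than in ZL rats. P450 reductase (Por), which serves all microsomal P450s, rose from 161 ± 13.6 to 201 ± 9.87 CPM (log2 fold change 0.32 ± 0.08, limma adjusted p = 0.012). Cytochrome b5 (Cyb5a) fell from 213 ± 32.7 to 135 ± 8.96 CPM (limma adjusted p = 0.0022), and Cyb5b and the haem-binding partner Pgrmc1 fell by 0.27 and 0.45 on the log2 scale. None of the 10 was called between ZF-SGLT2i and ZF rats. Among 12 genes of haem synthesis and breakdown, 3 were lower in ZF than in ZL rats (the synthesis enzymes Ppox and Fech and the biliverdin reductase Blvra), and none differed after canagliflozin by the same test. Of the 9 genes that release arachidonate or hydrolyse its epoxides, the phospholipase Pla2g4a rose from 14.6 ± 1.82 to 22.2 ± 2.00 CPM (limma adjusted p = 0.0032) and Pla2g6 fell from 55.9 ± 6.47 to 44.9 ± 2.00 CPM (limma adjusted p = 0.014) in ZF rats. The epoxide hydrolase Ephx2 was not called in any comparison.

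Among the 21 receptors and partners that control P450 genes, 1 was higher and 4 lower in ZF than in ZL rats. Ppara rose from 45.0 ± 5.97 to 67.7 ± 12.6 CPM (log2 fold change 0.57, limma adjusted p = 0.0086), and Ppard fell from 94.1 ± 11.4 to 35.0 ± 0.489 CPM (limma adjusted p = 2.2e-07). The estrogen receptor Esr1 fell by 0.48 on the log2 scale. Between ZF-SGLT2i and ZF rats Ppara was the only one called, and it rose to 105 ± 11.3 CPM (log2 fold change 0.64, limma adjusted p = 0.016). Of the 15 PPAR alpha target genes, which do not include Cyp4a1, 5 were higher and none lower in treated than in untreated obese rats, with a list median of 0.20. Among these, the log2 fold change was 1.32 for Pdk4, 0.96 for Pex11a and 0.57 for Ehhadh. In ZF against ZL rats 3 were higher, among them Vnn1 and Cpt1a, and 3 lower, among them Acadm and Ehhadh.

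In treated obese against lean rats, the calls were 1 higher and 3 lower of 10 electron donors, 1 higher and 6 lower of 12 haem genes, 1 higher and 2 lower of 9 arachidonate release and epoxide genes, 3 higher and 5 lower of 21 receptors and partners, and 7 higher and 2 lower of 15 PPAR alpha target genes. In the other lists they were 1 lower of 3 Ah receptor target genes, 3 lower of 3 growth hormone target genes, and 7 higher and 2 lower of 9 clock output genes. These other lists of regulators gave the following values. Of the 3 Ah receptor target genes in the table, Ugt1a6 was lower in ZF than in ZL rats (138 ± 12.1 against 203 ± 32.8 CPM), and canagliflozin gave no call. Of the 3 growth hormone target genes, Igf1 was lower in ZF than in ZL rats (4.48 ± 1.09 against 8.77 ± 1.49 CPM) and Socs2 was lower after canagliflozin than in ZF rats (1.53 ± 0.336 against 2.91 ± 0.470 CPM). Of the 9 clock output genes in the table, 6 were higher and 2 lower in ZF than in ZL rats and none was called between ZF-SGLT2i and ZF rats. Dbp, a clock factor known to bind D-boxes in some P450 promoters, had 25.3 to 65.9 CPM in ZL, 182 to 297 CPM in ZF and 257 to 334 CPM in ZF-SGLT2i rats. Arntl, a core clock gene, fell from 43.1 ± 9.21 CPM in ZL to 3.59 ± 2.45 CPM in ZF rats. In ZF-SGLT2i rats Arntl had 1.82 to 2.86 CPM. All ZL rats thus lay below both obese groups in Dbp and above them in Arntl, whereas in Per1 the ZL and ZF ranges overlapped (29.6 to 142 and 105 to 188 CPM). The time of day at which each rat was killed is not in the labels. The part of these genes in the P450 values was not tested.

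Markers of the other cell types of the cortex gave these counts. In ZF compared with ZL rats, 3 of 6 podocyte markers, 2 of 7 fibroblast and smooth muscle markers, 1 of 6 endothelial and 1 of 6 collecting duct markers were called higher, and none of the 5 thick limb and distal tubule markers or 5 tested macrophage markers was called. Between ZF-SGLT2i and ZF rats, 1 of 7 S3 markers (Slc27a2) and 1 of 6 collecting duct markers (Aqp2) were called higher and 1 of 8 injured tubule markers (Vcam1) lower. Of the adipocyte markers 3 of the 4 in the table stayed under 1 CPM in every rat, and none of the red blood cell markers was called.

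The 10 members below the filter were Cyp1a1, Cyp2d3, Cyp3a9, Cyp4f4, Cyp4f18, Cyp8b1, Cyp11a1, Cyp17a1, Cyp21a1 and Cyp46a1, and they were not tested. Of these, Cyp2d3 reached at most 1.07 CPM and Cyp4f18 at most 0.892 CPM. Cyp8b1, a bile acid enzyme of the liver, had 8 reads in ZL rat 1, 14 reads in ZL rat 4 and 0 in the other 10 rats. Cyp1a1, the classical Ah receptor target, had 6 and 17 reads in ZL rats 1 and 4 and at most 2 in any other rat. Both had their reads mainly in the 2 ZL rats that were also highest in Slc7a13. Cyp4f4, an omega-hydroxylase, had 2 to 8 reads in each ZF-SGLT2i rat and 0 to 2 in the others. All 4 treated rats were above all ZF rats in Cyp4f4, a difference that was not tested because the gene was below the filter. Cyp3a9 was the only Cyp3 gene in the table, with at most 0.384 CPM, and the highest members of the other untested families were Cyp21a1 (up to 2.59 CPM), Cyp46a1 (1.20 CPM), Cyp17a1 (0.476 CPM) and Cyp11a1 (0.334 CPM).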

How the data were processed

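Cortex RNA of 12 rats was sequenced as ribosome-depleted, strand-keeping libraries. Per the labels, the submitters' processing notes name Trimmomatic 0.38, RSEM 1.3.0, Bowtie2, edgeR and the build rn6, with no role or order. The deposited table holds a normalized signal per gene and rat, CPM scaled by the authors with edgeR's trimmed mean of M-values. Every value was a whole multiple of the worth of 1 read (100% of values in each rat, to within 1e-06 of a read), so whole reads were recovered, from 8824980 to 12210257 per rat. In ZF rat 3 and ZF-SGLT2i rats 3 and 4 that worth was near 0.1 (0.1002, 0.1010 and 0.1006). There the check of units could not tell whole reads from rounding. Rn28s and Rn45s took 7.25% to 15.2% of them. Intervals from these counts would cover counting error only.

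The filter asked for 4 or more rats at 1 or above, which 11633 of 13151 genes met, and log2(value + 1) was fitted for all 3 groups with limma 3.58.1 in R 4.3.3, with a mean-dependent prior and Benjamini-Hochberg adjustment over all 11633 genes. Fold changes on this scale understate the change of low genes. Calls needed an adjusted p under 0.05. The two-sided exact permutation test used the 70 assignments of 8 rats. Intervals are 95%. None of the 18 pairs of libraries within a group agreed within sampling noise.

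Genes were named by these rules: every tested arachidonate gene, every called member, the highest member of each family, every untested member, and at most 4 called genes per pathway list and comparison. Cell type markers and uncalled pathway genes were named after their values were seen. Some genes of the lists are not reported here by name. Members and gene lists were chosen with earlier results of these data known. Alternatives were pseudocount, filter, scaling, 2-group fits, a block for rat number, edgeR 4.0.16 and DESeq2 1.42.0 on recovered reads, and leaving out rats. Promoters (37 of 44 members) came from RefSeq GRCr8 and were aligned with Biopython 1.88. The build differs from rn6, so no read was placed on them. The method was tested on simulated data.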

Additional observations from a re-analysis of the deposited data

Results flagged for a closer look

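In 10 of the 102 sets of 4 rats (34 tested members in 3 groups), 1 rat stood apart from the other 3 by Dixon's criterion at 95%, where chance gives about 1 in 20 sets. In ZL, rat 4 was high for Cyp2s1 (20.9 CPM), Cyp4f5 (6.88 CPM) and Cyp7b1 (10.3 CPM), and rat 2 was low for Cyp4a3 (512 CPM). In ZF, rat 2 was high for Cyp2d4 (14.3 CPM). In ZF-SGLT2i, rat 3 was high for Cyp2c24 (4.85 CPM), Cyp2d5 (5.15 CPM) and Cyp2f4 (2.02 CPM). Also in ZF-SGLT2i, rat 4 was low for Cyp4a1 (101 CPM) and rat 6 was low for Cyp2j3 (2.23 CPM).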

How the results depend on the processing

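Of 31 fold changes examined under 23 alternatives (21 planned), 26 were called in the comparison reported and 5 had an adjusted p between 0.05 and 0.07. None reversed, 81 values lost and 24 gained the call, and 8 of the 26 calls held under every alternative run for them (22 for Cyp1b1 and Cyp2c11, which the higher mean filter removes, and 23 for the others): Cyp2e1 and Cyp4f1 between ZF and ZL, Cyp2e1 and Cyp1b1 between treated and untreated obese rats, and Cyp4f1, Cyp2c11, Cyp1b1 and Cyp4a1 in ZF-SGLT2i against ZL. Rescaling moved the median of all genes by at most 0.018. Members called in ZF against ZL (11 as reported) became 6 with a mean value of at least 10, 3 without both ZL rats highest in the S3 markers and 7 without those and ZF rat 2, and ranged from 8 (without ZL rat 1) to 15 (without ZL rat 2) when 1 rat was left out. For all genes (2185) the counts were 1048 and 642 under the 2 settings on those rats, and from 1384 to 2453 without 1 rat. In ZF-SGLT2i against ZF the 4 members called ranged from 2 to 6 and the 366 genes from 176 to 569 without 1 rat, and DESeq2 called 641 genes. In ZF-SGLT2i against ZL the 11 members became 4 with a mean value of at least 10, 6 without both ZL rats and 7 to 13 without 1 rat. The 3184 genes became 1778 and 1785 under the 2 settings on those rats and 2238 to 3302 without 1 rat. The higher mean filter tests fewer members, and the settings on rats use fewer samples.

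Rats of different groups share numbers in the labels, but deviations of same-numbered rats correlated between −0.38 and 0.25. Only for number 4 in ZF and ZF-SGLT2i was this correlation (0.25) above the best with a differently numbered rat (0.16). The numbers were therefore not treated as pairs in the fit reported. With rat number as a block, where a rat whose number occurs in 1 group adds nothing, 2 members and 807 genes were called between ZF and ZL, 2 and 223 between treated and untreated obese rats, and 5 and 1502 in ZF-SGLT2i against ZL.

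Tested members that never exceeded 3 CPM (Cyp1b1, Cyp2f4, Cyp2j10, Cyp4f37 and Cyp26a1) rest on at most 29 reads in any rat, which limits the precision of their values.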
